A study of Mus musculus with 6 samples.

Results

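The 39 genes described here encode the glycolytic pathway and the core of the cellular response to low oxygen. They were chosen by name and comprise transporters of glucose and lactate, the enzymes from hexokinase to lactate dehydrogenase, the regulators of phosphofructokinase, Hif1a with the prolyl hydroxylases Egln1 and Egln3, and established hypoxia targets. All 39 were found among the 35275 genes of the count files, and all 39 passed the filter on low counts, which kept 13883 genes for the tests. Read counts of the members ran upward from 46, the value of Adm in the Ly6G-low library of mouse 1.

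RNA was sequenced from cells that flow cytometry had separated out of subcutaneous CT26 tumours, a mouse colon carcinoma line, in BALB/C animals with tumours of 1800 mm3. The gates combined Ly6G, a surface protein of neutrophils, with binding of the aptamer T1, a nucleic acid strand whose fold lets it bind a cell surface. Ly6G-high T1-non-binding, Ly6G-high T1-binding and Ly6G-low T1-binding cells were each collected from the same 2 mice, which gave 6 libraries in 3 groups of 2, paired by animal. Strain, tumour line and tumour size were common to every group, and the age and sex of the mice, further gating markers and sort purity are not given in the sources used here. The samples of a group came from separate animals, so the spread within a group holds differences between mice, tumours, sorts and library preparations together.

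Glycolysis breaks glucose down to pyruvate in the cytosol, and cells that rely on it take glucose up through GLUT proteins and pass lactate out with protons through monocarboxylate transporters. When oxygen is scarce, prolyl hydroxylases stop marking HIF-1α for destruction, and the stabilised protein pairs with ARNT and binds a short core sequence, ACGTG or GCGTG, near genes for glycolysis, acid handling, mitochondrial clearance and vessel tone. Neutrophils make most of their ATP by glycolysis, and in this cell type HIF-1α is known to prolong survival.

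The core sequences ACGTG and GCGTG were searched on both strands in the 250 bases upstream of each annotated start, taken from RefSeq on build GRCm38.p6. A match on the opposite strand reads CACGT or CACGC, and the palindrome CACGTG counts on either strand. Of the 39 members, 35 had a promoter entry, and 32 of these 35 genes (91.4%) held at least 1 match at any start, against 41.5% of the 27025 genes in the same table. Members also had a median of 19 CG dinucleotides in the window against 6 over all genes, and since every match contains a CG, the part of base composition in the difference was not tested. No entry was found for Slc2a3, Ndrg1, Bnip3l and Bhlhe40. The match was present in 12 of the 12 members with an entry that were called lower and in 4 of the 4 that were called higher in Ly6G-low cells when T1-binding Ly6G-high cells were the reference, and in 16 of the 19 that were not called. With T1-non-binding cells as the reference it was present in 19 of the 19 called lower, 4 of the 4 called higher and 9 of the 12 not called. The 3 without a match were Gpi1, Tpi1 and Mif, called in neither comparison, and the relation of match and call was not tested.

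The 4 upstream windows below hold matches and belong to genes whose levels took different courses. Egln3 (chr12:54203875-54204124, minus strand) and Slc16a3 (chr11:120948817-120949066, plus strand) fell in Ly6G-low cells, Slc16a1 (chr3:104638414-104638663, plus strand) rose in them, and Ldha (chr7:46845554-46845803, plus strand) did not pass the test in any comparison. Each is written 5′ to 3′ on the strand of its gene, with matches in capitals.
Egln3: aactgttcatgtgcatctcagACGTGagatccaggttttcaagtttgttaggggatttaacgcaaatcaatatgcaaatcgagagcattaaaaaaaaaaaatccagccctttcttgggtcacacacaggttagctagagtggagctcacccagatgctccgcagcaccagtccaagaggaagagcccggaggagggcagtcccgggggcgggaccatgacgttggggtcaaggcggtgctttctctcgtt
Slc16a3: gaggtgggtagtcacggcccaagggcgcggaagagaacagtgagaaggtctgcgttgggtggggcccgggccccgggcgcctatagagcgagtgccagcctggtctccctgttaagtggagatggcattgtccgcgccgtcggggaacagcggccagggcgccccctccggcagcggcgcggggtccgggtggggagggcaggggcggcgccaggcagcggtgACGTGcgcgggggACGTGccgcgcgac
Slc16a1: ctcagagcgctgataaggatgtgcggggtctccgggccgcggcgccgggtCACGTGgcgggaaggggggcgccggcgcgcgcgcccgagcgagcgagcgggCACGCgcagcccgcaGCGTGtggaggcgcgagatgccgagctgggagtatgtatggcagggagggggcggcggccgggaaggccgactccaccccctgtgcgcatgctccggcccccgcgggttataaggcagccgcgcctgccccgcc
Ldha: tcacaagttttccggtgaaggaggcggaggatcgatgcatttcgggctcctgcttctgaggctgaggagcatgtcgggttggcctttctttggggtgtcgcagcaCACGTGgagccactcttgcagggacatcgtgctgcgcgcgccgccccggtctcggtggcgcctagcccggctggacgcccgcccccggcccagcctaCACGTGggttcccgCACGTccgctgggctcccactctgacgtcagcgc

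Counts in genes totalled 23595976 to 28045025 per library, of which the 39 members took 2.27% to 3.09%. Levels are given as CPM, a gene's count over the library's total rescaled to a common size, after TMM scaling, an edgeR factor that sets typical genes equal between libraries, and paired values are in the order mouse 1, mouse 2. This factor was 1.40 and 1.39 in the Ly6G-low libraries and 0.653 to 1.00 in the others, and scaling by library totals alone moved the median log2 fold change of all tested genes by 0.58 and 0.83 in the comparisons of Ly6G-low cells with Ly6G-high T1-binding and T1-non-binding cells, by 0.25 between the Ly6G-high gates and by 0.23 between the mice. The labels call all 3 populations myeloid, yet 10 general leukocyte genes such as Ptprc and Itgam summed to 1325 and 1942 CPM in the Ly6G-low libraries against 10085 to 19024 CPM in the Ly6G-high ones, and 10 of 10 were called lower in both comparisons. In the same Ly6G-low libraries 15 neutrophil genes, with the gating gene Ly6g among them, summed to 438 and 241 CPM against 12652 to 52235, and 10 cell cycle genes to 1055 and 1053 CPM against 416 to 653. A list of 12 epithelial and CT26 genes summed to 514 and 465 CPM in Ly6G-low cells against 171 to 283. Of its 8 tested genes, 6 were higher and 2 lower against T1-binding cells, and 5 higher and 3 lower against T1-non-binding cells. Cldn3 and Cldn4 were at 0 in the Ly6G-low library of mouse 2 and in all 4 Ly6G-high libraries. A list of 8 fibroblast genes summed to 1457 and 1189 CPM in Ly6G-low cells against 427 to 817, and 14 macrophage genes to 1835 and 3555 CPM against 5393 to 11737. Lymphocyte genes summed to 8.50 and 24.8 CPM in Ly6G-low cells against 23.7 to 45.7, and endothelial genes to 12.8 and 12.1 CPM against 51.2 to 119. Against T1-binding cells 3 lymphocyte genes were higher and 5 lower, and 3 endothelial genes were higher and 3 lower. Against T1-non-binding cells 8 of 8 and 6 of 6 were lower. Erythroid or platelet genes summed to 211 and 187 CPM in Ly6G-low cells against 316 to 1412 in the Ly6G-high libraries. Mitochondrially encoded genes took 1.21% and 0.958% of the Ly6G-low counts against 0.314% to 0.626%. In bulk libraries fewer cells of a type and less RNA per cell cannot be told apart, and the part of these differences in the results below was not tested.

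Ly6G-low T1-binding cells held much less mRNA for the glucose transporter Slc2a3, the lactate exporter Slc16a3, the phosphofructokinase regulator Pfkfb3, the oxygen sensor Egln3 and the lipid droplet gene Hilpda than either Ly6G-high population, while most enzymes of the lower pathway did not pass the test. Against Ly6G-high T1-binding cells 13 of 39 members (33.3%) fell, where 24.3% of all tested genes were called lower, and 4 (10.3%) rose, where 18.8% were called higher (edgeR quasi-likelihood test, adjusted p under 0.05). Against Ly6G-high T1-non-binding cells 22 members (56.4%) fell, beside 23.8% of all genes, and the same 4 rose, beside 16.1%. The 4 were Slc16a1, Pfkm, Car9 and P4ha2. Under library totals the calls were 13 lower and 6 higher in the first comparison, beside 16.1% and 37.5% of all genes, and 16 lower and 8 higher in the second, beside 13.6% and 52.3%. In the sentences that follow, a pair of fold changes or adjusted p-values is against T1-binding cells first and T1-non-binding cells second. The median log2 fold change of the members was -0.74 and -1.35, against 0.03 and 0.09 over all tested genes. Both Ly6G-low libraries lay below both Ly6G-high T1-binding libraries for 27 members, beside 39.6% of all genes, and above them for 4, beside 41.6%. Against the T1-non-binding libraries the counts were 29 below, beside 36.6%, and 4 above, beside 43.6%. These comparisons share the Ly6G-low libraries and are given side by side, not as support for each other.

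With the mouse as a block, the calls against Ly6G-high T1-binding cells became 21 lower, beside 26.9% of all genes, and 4 higher, beside 21.7%, the added ones being Hk2, Pfkl, Bnip3, Bnip3l, Adm, Ankrd37, P4ha1 and Bhlhe40. The number of calls rested on single libraries. Without the Ly6G-low library of mouse 1, 8 members were called against T1-binding and 9 against T1-non-binding Ly6G-high cells, beside 13.6% and 10.6% of all genes, and without that of mouse 2 the numbers were 12 and 13, beside 21.4% and 16.7%. Leaving out the T1-binding library of mouse 1 left 10 calls in the first of these comparisons, beside 17.2%, and leaving out the T1-non-binding library of mouse 1 left 13 in the second, beside 16.3%. The calls over all genes thus fell along with those of the members. In those fits a lone library was assumed to vary like the other groups. Slc2a3, Slc16a3, Hk3, Pfkfb3, Pfkfb4, Aldoc, Egln3 and Hilpda kept their call against Ly6G-high T1-binding cells whichever library was left out, and Slc2a3, Slc16a3, Hk3, Pfkp, Pfkfb3, Pfkfb4, Egln3, Hilpda and Ddit4 did so against T1-non-binding cells. All of the other calls were lost without at least 1 library.

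**Figure D1:**
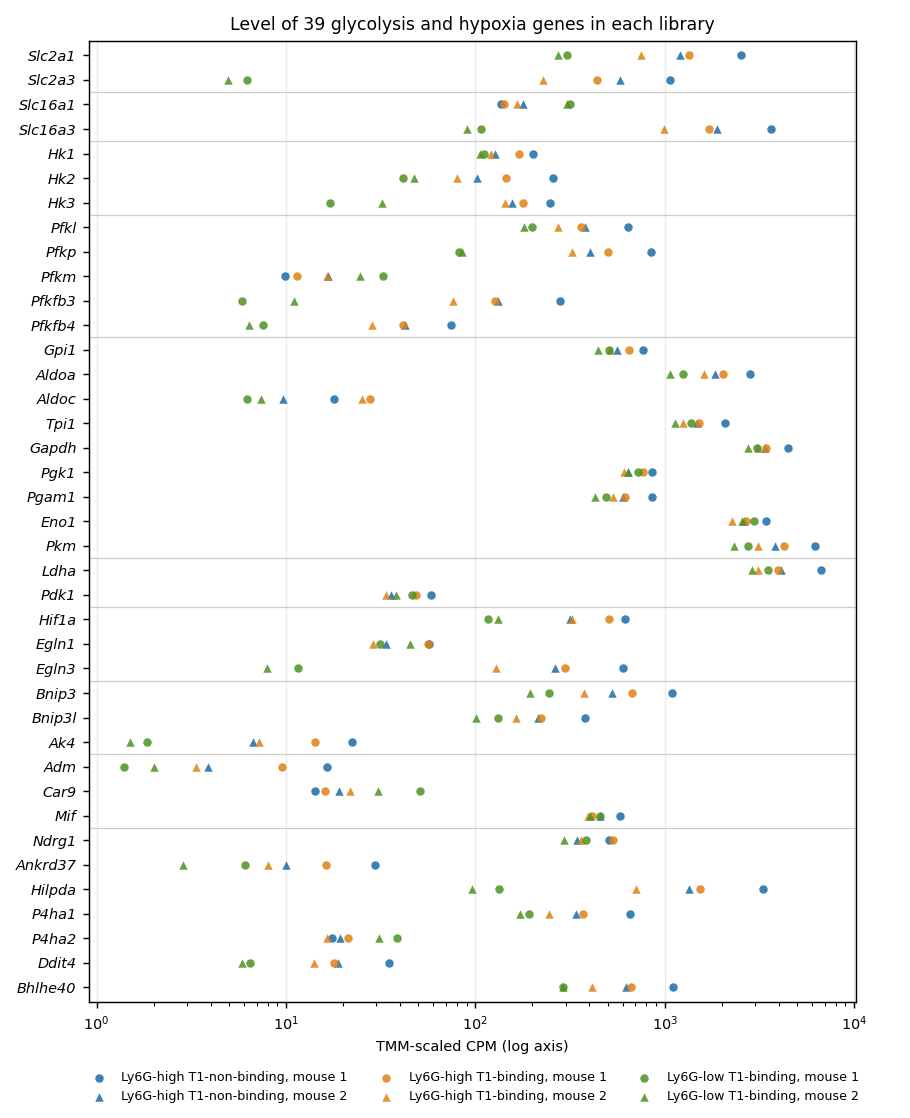
Level of each of the 39 members in the 6 libraries, as TMM-scaled CPM on a log axis, with circles for mouse 1, triangles for mouse 2 and a colour for each population. The Ly6G-low values of Slc2a3 (6.25 and 4.94) lie far to the left of the others, and those of Slc16a1, Pfkm, Car9 and P4ha2 lie to the right.

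Both glucose transporters fell in Ly6G-low cells. Slc2a3 encodes GLUT3, a high-affinity transporter of neurons and leukocytes, and its level was 1069.9 and 584 CPM in T1-non-binding, 439.9 and 228 in T1-binding and 6.25 and 4.94 in Ly6G-low cells. The groups stood apart in this order without overlap. On the log2 scale Slc2a3 fell by 5.90 ± 0.51 (SE) against T1-binding cells, a 59.7-fold lower level (edgeR adjusted p = 0.00249), and fell by 7.21 ± 0.54, a 148-fold lower level, against T1-non-binding cells (adjusted p = 0.000796), which was the largest change of any member in either comparison. Slc2a1 encodes GLUT1, the widely expressed basal transporter, and stood at 2529 and 1204 CPM in T1-non-binding, 1338 and 752 in T1-binding and 305 and 272 in Ly6G-low cells. Its Ly6G-low libraries lay below all others, although the Ly6G-high groups overlapped. Slc2a1 fell, with log2 fold changes of -1.86 ± 0.45 and -2.69 ± 0.47 (adjusted p = 0.0178 and 0.00683). As a share of the summed FPKM of both genes, a level per gene length, Slc2a3 made up 15.0% and 16.8% in T1-non-binding, 12.1% and 11.2% in T1-binding and 0.848% and 0.753% in Ly6G-low cells.

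The monocarboxylate transporters moved in opposite directions. Slc16a3 encodes MCT4, the exporter of strongly glycolytic cells, and stood at 3654 and 1889.6 CPM in T1-non-binding, 1710.5 and 995 in T1-binding and 107 and 90.6 in Ly6G-low cells. Every Ly6G-low value was far under every Ly6G-high value. On the log2 scale Slc16a3 fell by 3.77 ± 0.47 (SE) against T1-binding cells, or 13.7-fold, and fell by 4.81 ± 0.50, or 28.0-fold, against T1-non-binding cells (adjusted p = 0.00327 and 0.00155). Slc16a1 encodes MCT1, which carries lactate in either direction, and its levels were 136 and 177 CPM in T1-non-binding, 141 and 165 in T1-binding and 316 and 306 in Ly6G-low cells. Here the Ly6G-high groups overlapped and the Ly6G-low libraries were the highest. Slc16a1 rose 2.03-fold and 1.98-fold, with log2 fold changes of 1.02 ± 0.22 and 0.98 ± 0.22 (adjusted p = 0.0112 and 0.0151). Its share of the FPKM of the pair was 3.53%, 8.42%, 7.48% and 14.0% in the Ly6G-high libraries and 74.2% and 76.8% in the Ly6G-low ones, so the transporter with the larger level per length was Slc16a3 in the former and Slc16a1 in the latter.

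Of the hexokinases, which trap glucose in the cell as its phosphate, Hk3 fell in both comparisons and Hk2 fell against T1-non-binding cells. Hk3, the isoenzyme typical of myeloid cells, stood at 249 and 156 CPM in T1-non-binding, 178 and 143 in T1-binding and 17.0 and 32.0 in Ly6G-low cells and fell, with log2 fold changes of -2.71 ± 0.38 and -3.05 ± 0.38 (SE) (adjusted p = 0.00366 and 0.00227). The Ly6G-low libraries did not overlap the rest, and the ratio between the mice was larger in Ly6G-low cells than in either Ly6G-high group. Hk2, the inducible isoenzyme, stood at 258 and 101 CPM in T1-non-binding, 146 and 79.9 in T1-binding and 41.8 and 47.2 in Ly6G-low cells, with a log2 fold change of -1.34 ± 0.46 against T1-binding (adjusted p = 0.0525) and a fall by 2.01 ± 0.47 against T1-non-binding cells (adjusted p = 0.0181). Hk1, the housekeeping isoenzyme, did not pass the test, at -0.42 ± 0.28 and -0.59 ± 0.28, values that turned to 0.18 and 0.29 under library totals. Per gene length, Hk3 held 45.2% to 50.9% of the hexokinase FPKM in Ly6G-high libraries and 13.6% and 23.0% in Ly6G-low ones, where Hk1 held the largest share with 66.9% and 57.3%.

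Phosphofructokinase sets the pace of glycolysis, and the kinases Pfkfb3 and Pfkfb4 make its activator, fructose 2,6-bisphosphate. Pfkfb3 stood at 280.3 and 131 CPM in T1-non-binding, 126 and 75.9 in T1-binding and 5.89 and 11.0 in Ly6G-low cells, and Pfkfb4 at 74.8 and 42.7 CPM in T1-non-binding, 41.4 and 28.6 in T1-binding and 7.59 and 6.35 in Ly6G-low cells. For both genes the 3 groups stood apart in descending order. Pfkfb3 fell, with log2 fold changes of -3.58 ± 0.50 and -4.60 ± 0.52 (SE), or 12.0-fold and 24.3-fold (adjusted p = 0.00374 and 0.00184). Pfkfb4 fell, with log2 fold changes of -2.33 ± 0.32 and -3.07 ± 0.33 (adjusted p = 0.00371 and 0.00168). Among the subunits of the enzyme itself, the platelet-type Pfkp stood at 846 and 404 CPM in T1-non-binding, 503 and 323 in T1-binding and 82.3 and 85.0 in Ly6G-low cells and fell, with log2 fold changes of -2.30 ± 0.41 and -2.90 ± 0.42 (adjusted p = 0.00645 and 0.00357). The muscle-type Pfkm was scarce, at 9.90 and 16.7 CPM in T1-non-binding, 11.5 and 16.5 in T1-binding and 32.6 and 24.5 in Ly6G-low cells, with the Ly6G-low libraries highest. Pfkm rose 2.04-fold and 2.13-fold (adjusted p = 0.034 and 0.0321). Pfkl, the liver-type subunit, fell by 1.43 ± 0.31 against T1-non-binding cells (adjusted p = 0.0147) and had a log2 fold change of -0.74 ± 0.31 against T1-binding cells (adjusted p = 0.0875). The share of Pfkp in the summed FPKM of the subunits was 44.6% to 51.7% in Ly6G-high and 21.5% and 24.3% in Ly6G-low libraries, and that of Pfkm was 0.963% to 3.86% and then 13.8% and 11.3%.

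**Figure D2:**
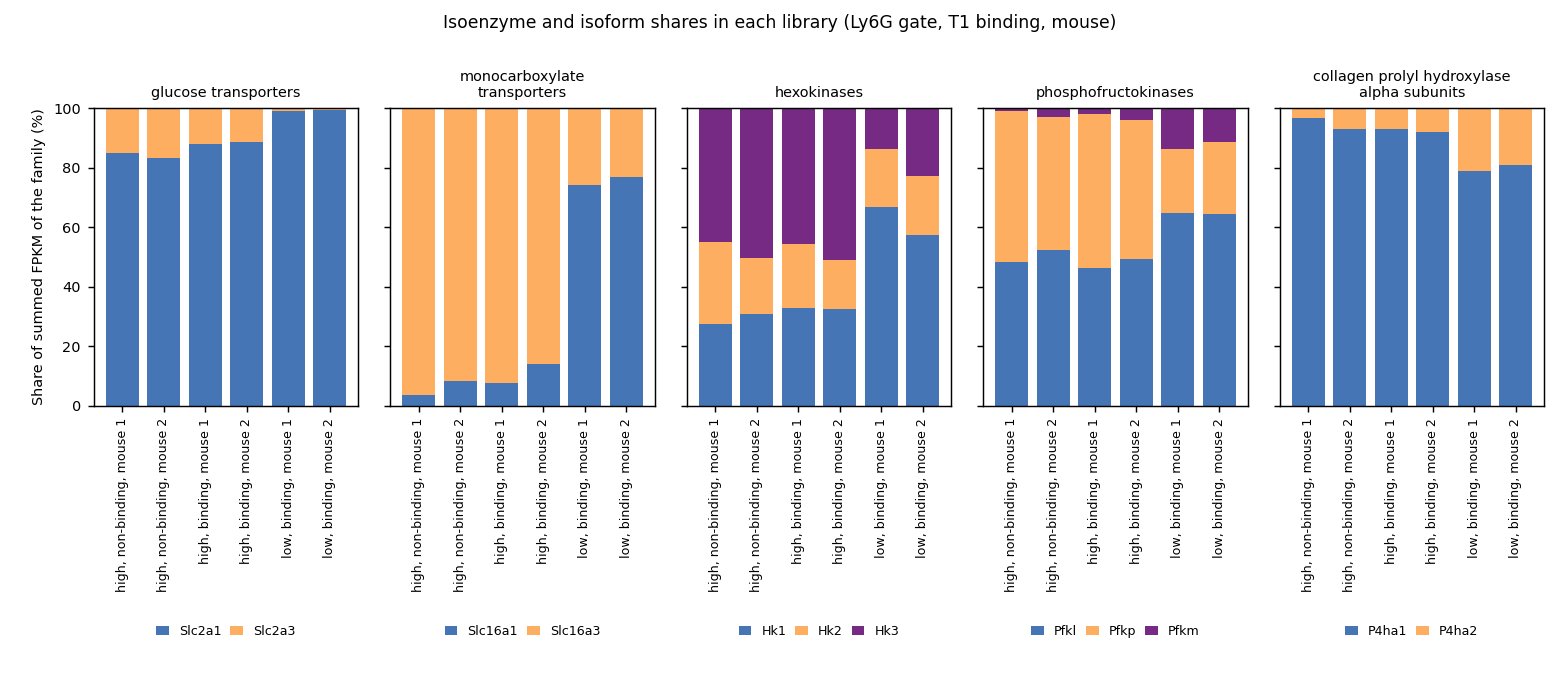
Share of the summed FPKM (%) that each isoenzyme or isoform held in its family, 1 bar per library, for 5 families. Slc16a1 went from 3.53% to 14.0% in the Ly6G-high libraries to 74.2% and 76.8% in the Ly6G-low ones, and the shares of Hk3 and Pfkp were smaller in the Ly6G-low libraries than in any Ly6G-high one.

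Shares were computed for 7 families in all. The isoenzyme with the largest FPKM differed between libraries in 3 of them (monocarboxylate transporters, hexokinases and phosphofructokinases) and was the same in 4. Within phosphofructokinases Pfkp led by FPKM in the Ly6G-high libraries of mouse 1 and Pfkl in those of mouse 2. Shares of read counts, which are not per length, differed in leader in the same 3 families, but there Pfkp led in all 4 Ly6G-high libraries, and Hk2 led the hexokinases in the T1-non-binding library of mouse 1. In the collagen prolyl hydroxylases, P4ha2 had 3.39% to 8.09% of the FPKM in Ly6G-high and 21.0% and 19.3% in Ly6G-low libraries. Aldoc, the brain-type aldolase, never exceeded 0.863% of the aldolase FPKM, and Bnip3 kept 77.4% to 84.7% of that of the Bnip3 pair. These shares do not depend on the scaling between libraries and were not tested.

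Apart from the scarce Aldoc, the enzymes that follow phosphofructokinase were among the more abundant members, as were lactate dehydrogenase and Gpi1, which acts before phosphofructokinase. Of all these, Aldoc alone passed the test against T1-binding cells. In FPKM, a level per gene length, Gapdh stood at 2127 ± 91.4 in T1-non-binding, 2133 ± 82.1 in T1-binding and 2851 ± 229 in Ly6G-low cells (SD, n = 2), and Ldha at 2301 ± 250.5, 1848 ± 103 and 2516 ± 366. The libraries are not rescaled in these FPKM values, and in each population Gapdh and Ldha held the first 2 places among the 39. On the scaled counts, the log2 fold changes of Gpi1, Aldoa, Tpi1, Gapdh, Pgk1, Pgam1, Eno1, Pkm and Ldha, a grouping of 9 made after their values were seen, ran from -0.65 to 0.15 against T1-binding cells and from -1.02 to -0.14 against T1-non-binding cells, and under library totals 8 of the 9 and 7 of the 9 lay above 0, with 5 and 2 of the 9 above 0 under upper-quartile factors. With TMM factors edgeR called none of the 9 in the first comparison, and none had an unadjusted p under 0.05. There limma-voom called 0 and DESeq2 called 1, Aldoa. In the second comparison edgeR and limma-voom with TMM factors called 1, Aldoa, and DESeq2 called 4, which were Aldoa, Pgam1, Pkm and Ldha. Under library totals edgeR called 1 of the 9 higher in the first comparison, beside 37.5% of all tested genes called higher. In the second it called 2 higher, Pgk1 and Eno1, beside 52.3%. Aldoa, the main aldolase, stood at 2833 and 1847 CPM in T1-non-binding, 2022 and 1612 in T1-binding and 1251 and 1061 in Ly6G-low cells and fell by 1.02 ± 0.34 (SE) against T1-non-binding cells, with an adjusted p of 0.0496 at the edge of the threshold and a log2 fold change of -0.14 under library totals. Aldoc fell in both comparisons, by 1.95 ± 0.30 and 1.00 ± 0.30 (adjusted p = 0.00441 and 0.0384), from 17.9 and 9.64 CPM in T1-non-binding and 27.7 and 25.2 in T1-binding to 6.25 and 7.42 in Ly6G-low cells. Its T1-binding libraries were the highest of the 6. Ldha, which makes lactate from pyruvate, and Pdk1, which shuts pyruvate out of the mitochondrial cycle, had log2 fold changes of -0.15 ± 0.38 and 0.03 ± 0.28 against T1-binding and -0.76 ± 0.38 and -0.16 ± 0.28 against T1-non-binding cells, none past the threshold, and those of Ldha and the negative one of Pdk1 turned positive under library totals. Gapdh, Eno1, Ldha and several other members have near-identical processed copies in the mouse genome, and how the authors' counting treated them is not given in the sources used here.

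The oxygen-sensing genes split. Egln3 encodes PHD3, a prolyl hydroxylase that HIF itself induces, and it stood at 606 and 264 CPM in T1-non-binding, 297 and 128 in T1-binding and 11.6 and 7.91 in Ly6G-low cells. The Ly6G-low libraries lay more than an order of magnitude below every other, and the Ly6G-high groups overlapped. Egln3 fell, with log2 fold changes of -4.45 ± 0.59 and -5.48 ± 0.62 (SE), or 21.8-fold and 44.6-fold (adjusted p = 0.00342 and 0.00181). Its upstream window, printed above, holds 1 match to the HIF core. Hif1a, the oxygen-regulated subunit of the factor, stood at 621 and 317 CPM in T1-non-binding, 506 and 324 in T1-binding and 117 and 132 in Ly6G-low cells and fell, with log2 fold changes of -1.74 ± 0.38 and -1.91 ± 0.38 (adjusted p = 0.0126 and 0.0113). HIF-1α is controlled mainly as a protein, which was not measured. Egln1, which encodes PHD2, the main oxygen sensor, did not pass the test, with -0.15 ± 0.38 and -0.24 ± 0.38, and lay above 0 under library totals.

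Among targets that act on mitochondria and energy charge, the mitophagy receptors Bnip3 and Bnip3l and the adenylate kinase Ak4 all fell against T1-non-binding cells, and Ak4 alone of the 3 passed the test against T1-binding cells. Bnip3 stood at 1089 and 525 CPM in T1-non-binding, 668 and 375 in T1-binding and 245 and 195 in Ly6G-low cells, with a log2 fold change of -1.25 ± 0.43 (SE) against T1-binding cells (adjusted p = 0.0538) and a fall by 1.88 ± 0.44 against T1-non-binding cells (adjusted p = 0.0182). No Ly6G-low library overlapped the Ly6G-high ones. Ak4 was scarce, at 22.2 and 6.72 CPM in T1-non-binding, 14.3 and 7.20 in T1-binding and 1.85 and 1.50 in Ly6G-low cells, and fell, with log2 fold changes of -2.68 ± 0.61 and -3.09 ± 0.62 (adjusted p = 0.0143 and 0.0113). Bnip3l fell by 1.35 ± 0.33 against T1-non-binding cells (adjusted p = 0.0213).

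The secreted and surface targets took 3 courses. Car9 encodes a membrane carbonic anhydrase that buffers acid at the cell surface and marks hypoxic tumour cells, and it stood at 14.2 and 19.0 CPM in T1-non-binding, 16.1 and 21.9 in T1-binding and 50.8 and 30.6 in Ly6G-low cells. Both Ly6G-low libraries were above the rest, that of mouse 1 by the wider margin. Car9 rose 2.14-fold and 2.44-fold, with log2 fold changes of 1.10 ± 0.30 and 1.29 ± 0.30 (SE) (adjusted p = 0.0246 and 0.0179). Adm encodes the vasodilator adrenomedullin and stood at 16.6 and 3.89 CPM in T1-non-binding, 9.51 and 3.33 in T1-binding and 1.40 and 2.02 in Ly6G-low cells, with a fall by 2.55 ± 0.77 against T1-non-binding cells (adjusted p = 0.0378) and -1.90 ± 0.76 against T1-binding cells (adjusted p = 0.0791). Mif, an inflammatory cytokine, stood at 584 and 453 CPM in T1-non-binding, 415 and 392 in T1-binding and 454 and 404 in Ly6G-low cells and passed in neither comparison, at 0.09 ± 0.24 and -0.27 ± 0.24, the latter 0.58 under library totals.

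Hilpda led the remaining targets. It encodes an inhibitor of the lipase ATGL that promotes lipid droplets in hypoxia, and it was the third most abundant member per gene length in T1-non-binding cells, with 1724 ± 671 FPKM (SD, n = 2). On scaled counts it stood at 3307 and 1337 CPM in T1-non-binding, 1532 and 701 in T1-binding and 133 and 96.3 in Ly6G-low cells, and the Ly6G-low libraries stood well apart. Hilpda fell, with log2 fold changes of -3.29 ± 0.59 and -4.34 ± 0.62 (SE), or 9.75-fold and 20.3-fold (adjusted p = 0.00657 and 0.00341). Ddit4, an inhibitor of mTORC1, stood at 34.9 and 18.7 CPM in T1-non-binding, 18.0 and 14.0 in T1-binding and 6.50 and 5.89 in Ly6G-low cells and fell, with log2 fold changes of -1.37 ± 0.32 and -2.11 ± 0.32 (adjusted p = 0.0147 and 0.00425). The groups of Ddit4 did not overlap. P4ha2, a subunit of collagen prolyl hydroxylase, stood at 17.4 and 19.4 CPM in T1-non-binding, 21.1 and 16.4 in T1-binding and 38.7 and 30.9 in Ly6G-low cells and rose 1.85-fold and 1.89-fold (adjusted p = 0.0145 and 0.016). Its partner isoform P4ha1 went the other way and fell by 1.45 ± 0.37 against T1-non-binding cells (adjusted p = 0.0234), with -0.76 ± 0.36 against T1-binding cells (adjusted p = 0.125). Of 8 fibroblast genes, 7 were higher in Ly6G-low cells in both comparisons and 3 were called higher, beside 18.8% and 16.1% of all genes. Cell cycle genes were higher for 10 of 10 in both, with 10 and 8 called. Of 8 tested epithelial and CT26 genes, 6 and 5 were higher, 4 of them called each time, and 2 and 3 were lower. The part of these lists in the level of P4ha2 was not tested. The transcription factor Bhlhe40 and the ankyrin repeat gene Ankrd37 passed the test against T1-non-binding cells, where both fell, with log2 fold changes of -1.58 ± 0.37 and -2.14 ± 0.62 (adjusted p = 0.0183 and 0.0337), and not against T1-binding cells (adjusted p = 0.0853 and 0.0912), whereas Ndrg1, a stress-induced growth regulator, passed in neither, at -0.40 ± 0.31 and -0.33 ± 0.31.

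**Figure D3:**
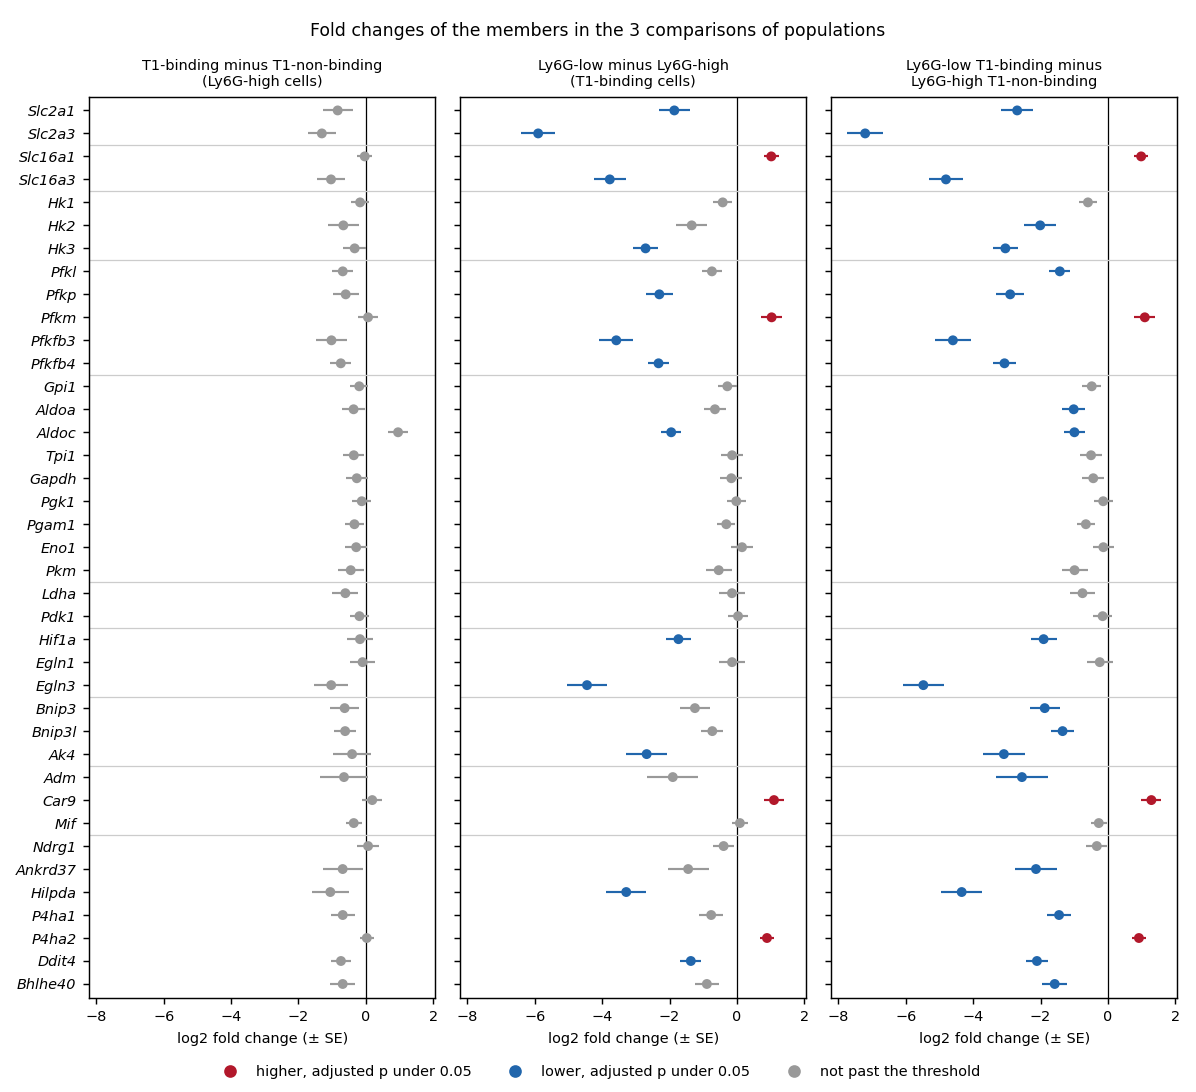
Log2 fold change with its standard error for each member in the 3 comparisons of populations, ordered by role, with red for higher, blue for lower and grey for not past the threshold. No member passed between the Ly6G-high gates, and Slc2a3 lay farthest to the left in both comparisons of Ly6G-low cells, at -5.90 and -7.21.

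Between the Ly6G-high gates, T1-binding cells were lower than T1-non-binding cells for 34 of 39 members, beside 55.4% of all tested genes, and for 26 of 39 under library totals, and none passed the test. The median log2 fold change of the members was -0.41 against -0.05 over all tested genes, and it was -0.55 within mouse 1 and -0.23 within mouse 2. edgeR called 0 of 39 members and 0% of all tested genes, with a smallest adjusted p of 0.386. At an unadjusted p under 0.05 it found 4 members lower (Slc2a3, Slc16a3, Pfkfb4 and Ddit4), beside 6.35% of all genes, and 1 higher (Aldoc), beside 5.34%. DESeq2 called 1, Slc2a3, and 1.46% of all genes, and limma-voom called 0 members and 0% of all genes. With the mouse as a block on 6 libraries edgeR still called 0, with a smallest adjusted p of 0.0868 among members. With the block and the 4 Ly6G-high libraries alone, which left 1 residual degree of freedom, 23 members were lower, beside 14.6% of all genes, and 1 was higher, beside 13.6%.

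Direction in each mouse gave 31 members lower in T1-binding cells in both, beside 38.8% of all tested genes, 3 higher in both (Aldoc, Car9 and Ndrg1), beside 31.9%, and 5 with opposite signs. The libraries of the gates did not overlap for 8 lower members (20.5%), which is near the share of all genes, 19.1%. These members were Slc2a3, Slc16a3, Pfkl, Pfkfb3, Pfkfb4, Ldha, Mif and Ddit4. Without overlap in the other direction was 1 higher member (2.56%), Aldoc, beside 20.1% of all genes. The largest fitted differences were -1.31 ± 0.41 (SE) for Slc2a3, -1.06 ± 0.54 for Hilpda, -1.03 ± 0.43 for Slc16a3, -1.03 ± 0.51 for Egln3 and -1.02 ± 0.45 for Pfkfb3, and 0.95 ± 0.30 for Aldoc. Hilpda and Egln3 belonged to the members whose gates overlapped, the T1-non-binding library of mouse 2 lying below the T1-binding library of mouse 1. The median rested on single libraries and on the scaling. Under library totals it was -0.09, beside 0.20 over all tested genes. With TMM scaling it was -0.06 without the T1-non-binding library of mouse 1 and -0.75 without that of mouse 2. It was -0.69 without the T1-binding library of mouse 1 and -0.18 without that of mouse 2. Marker lists differed between these gates too. In T1-binding cells 15 of 15 neutrophil genes were lower, with a median log2 difference of -1.54 within mouse 1 and -1.45 within mouse 2. Their sums were 52235 and 32735 CPM in T1-non-binding and 19650 and 12652 CPM in T1-binding cells. Macrophage genes were higher for 14 of 14, with medians of 1.16 and 1.12 and sums of 5657 and 5393 against 11086 and 11737 CPM. Lower in T1-binding cells were also 10 of 10 cell cycle, 8 of 10 leukocyte and 7 of 8 tested epithelial and CT26 genes. None of these markers passed the test, and their part in the member differences was not tested.

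The libraries of mouse 2 were lower than those of mouse 1 for most members. In a model with terms for population and mouse, 36 of 39 members were lower in mouse 2, beside 51% of all genes, and 32 of 39 under library totals, with a median log2 fold change of -0.46 against -0.01 over all genes. edgeR called none of the 39, beside 0.0072% of all tested genes, with a smallest adjusted p of 0.147 (Ankrd37, -1.23 ± 0.18, SE). At an unadjusted p under 0.05, 18 members were lower, beside 6.42% of all genes, and 0 higher, beside 2.74%. DESeq2 called 6, all lower (Slc2a3, Egln3, Bnip3, Ak4, Ankrd37 and Hilpda), beside 1.17% of all genes, and limma-voom called 0, beside 0.0072%. The count of calls rested on single libraries: it was 35 without the Ly6G-low library of mouse 1, beside 30.4% of all genes, 36 without that of mouse 2, beside 32.9%, and 1 without the Ly6G-high T1-binding library of mouse 1, beside 0.137%, each with 1 residual degree of freedom. The share of all genes called moved with that of the members.

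Lower values in mouse 2 were found in all 3 populations for 27 of 39 members, beside 15.4% of all tested genes. The median difference, mouse 2 minus mouse 1, was -0.755 in T1-non-binding, -0.49 in T1-binding and -0.194 in Ly6G-low cells on the scale log2(CPM + 0.5). Ankrd37 differed by -1.51, -0.97 and -0.97, and Egln3 by -1.20, -1.21 and -0.52. Both were lower in mouse 2 in every population. Slc16a1, Pfkm and Car9 were the 3 members with a positive fitted difference, and Car9 differed by 0.40 and 0.43 in the Ly6G-high populations and by -0.72 in Ly6G-low cells. In the 4 Ly6G-high libraries alone, with 1 residual degree of freedom, 33 members were called lower, beside 19.9% of all genes, and 3 higher, beside 15.7%. A test of whether the mouse difference itself differed between Ly6G-low and Ly6G-high cells, chosen after the data were seen and with 1 residual degree of freedom, called 15 of 39 members, beside 18.6% of all genes. Of the 39, 13 (33.3%) were called with a higher value in Ly6G-low cells, beside 14.1% of all genes. Each mouse gave 1 Ly6G-low library, so the residual spread in this test is that of the Ly6G-high libraries alone and the Ly6G-low difference has no replicate check. Marker lists also differed between the mice in the same model: 11 of 15 neutrophil genes were lower in mouse 2 (median log2 fold change -0.62), as were 7 of 7 tested erythroid or platelet genes (-0.68) and 10 of 10 leukocyte genes (-0.09), whereas 7 of 8 lymphocyte genes (0.92), 10 of 10 cell cycle genes (0.33), 7 of 8 fibroblast genes (0.33) and 10 of 14 macrophage genes (0.21) were higher. None of these markers passed the test, and their part was not tested. Each mouse is 1 tumour, 1 sort and 1 library per population, so these cannot be told apart.

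**Figure D4:**
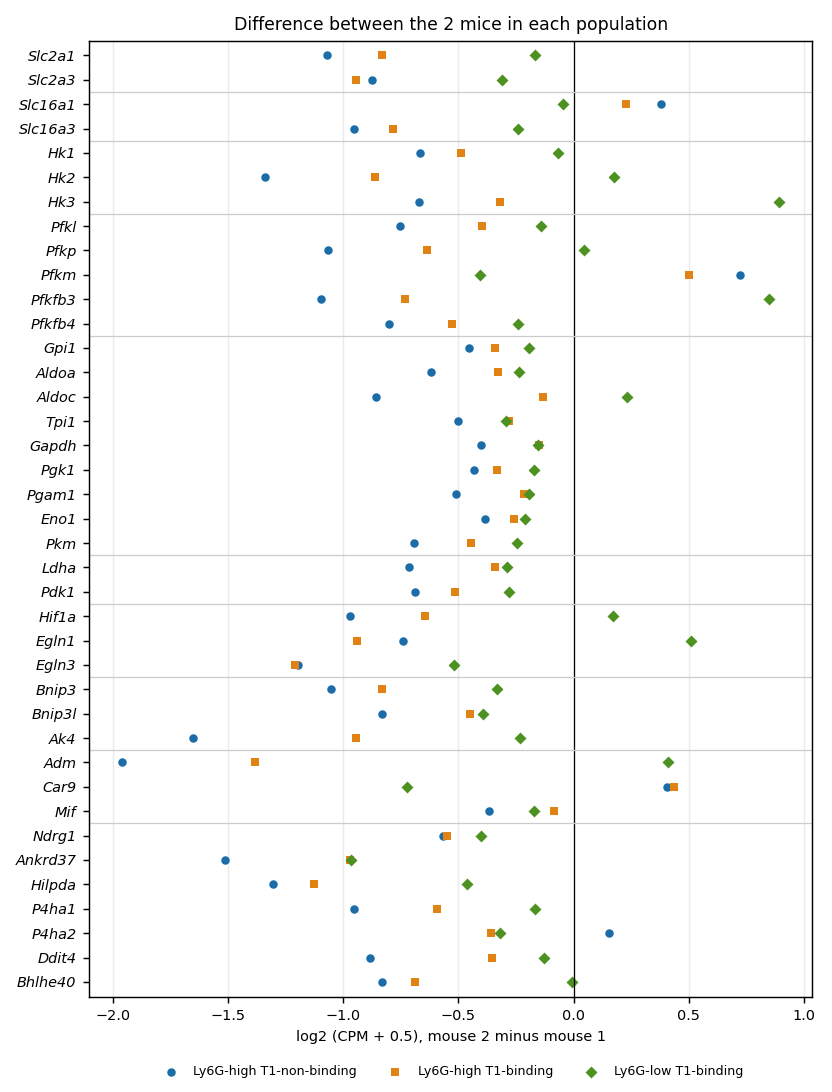
Difference between mouse 2 and mouse 1, log2(CPM + 0.5), for each member within each population, which is marked by colour and shape. Most points lie left of 0, and the Ly6G-low points (median -0.194) lie nearer to 0 than those of the T1-non-binding cells (median -0.755).

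The other genes of these pathways were taken as 5 lists, whose counts stand beside 24.3% lower and 18.8% higher of all tested genes against T1-binding cells and 23.8% and 16.1% against T1-non-binding cells. Among 33 further HIF targets, 32 of them tested, 11 fell and 8 rose when Ly6G-low were compared with T1-binding Ly6G-high cells, and 14 fell and 5 rose against T1-non-binding cells, where 5 of 32 is near the share of all genes that rose. The largest falls were those of Rab20, a small GTPase, and Nfil3, a transcription factor. Rab20 went from 823 ± 343 CPM in T1-non-binding and 441 ± 169 in T1-binding to 28.0 ± 4.94 in Ly6G-low cells (SD, n = 2) and fell, with log2 fold changes of -3.98 ± 0.44 and -4.88 ± 0.46 (SE). Nfil3 fell, with log2 fold changes of -2.64 ± 0.36 and -3.50 ± 0.37. Vldlr, a lipoprotein receptor, rose, with log2 fold changes of 1.78 ± 0.22 and 1.28 ± 0.21, and Plod2, a collagen lysyl hydroxylase, with 1.50 ± 0.23 and 1.24 ± 0.23. Vegfa, the main angiogenic factor, fell, with log2 fold changes of -1.74 ± 0.43 and -1.57 ± 0.43 and is named outside the rule for its role.

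Of 34 further genes of glucose and glycogen handling, 29 of them tested, 8 fell and 2 rose against T1-binding cells, and 9 fell and 4 rose against T1-non-binding cells. The falls, 8 and 9 of 29, were near the share of all genes. Pygl, a glycogen phosphorylase, fell, with log2 fold changes of -3.36 ± 0.37 and -4.06 ± 0.38 (SE), and the transporter Slc2a6 with -2.85 ± 0.33 and -3.79 ± 0.34. Eno3, the muscle-type enolase, rose, with log2 fold changes of 1.44 ± 0.28 and 1.00 ± 0.28, and Pck2, a mitochondrial phosphoenolpyruvate carboxykinase, with 1.14 ± 0.23 and 0.99 ± 0.23. For the entry of pyruvate into mitochondria, 13 of 14 genes were tested. In the first comparison 1 was called lower and 2 higher, and in the second 1 lower and 3 higher. The rises, 2 and 3 of 13, were near the share of all genes that rose. Pcx, pyruvate carboxylase, was called higher in both, with log2 fold changes of 0.95 ± 0.25 and 1.11 ± 0.25. Dlat, a subunit of the pyruvate dehydrogenase complex, was also higher in both, with 0.48 ± 0.16 and 0.57 ± 0.16, and Pdp1, the phosphatase that activates the complex, rose by 0.67 ± 0.18 against T1-non-binding cells. In the 7 genes of the pentose phosphate pathway, 2 fell and none rose in the first comparison, where 2 of 7 is near the share of all genes that fell. In the second comparison 1 fell and none rose. Taldo1, transaldolase, fell in both, with log2 fold changes of -1.34 ± 0.25 and -2.14 ± 0.25. The entry enzyme G6pdx fell by 0.70 ± 0.19 against T1-binding cells. Of 16 regulators of HIF, 15 of them tested, 2 and 5 fell and none rose, with Arnt, the partner of HIF-1α, lower in both, with log2 fold changes of -0.94 ± 0.24 and -1.29 ± 0.24. The coactivator Crebbp fell, with log2 fold changes of -1.06 ± 0.31 and -1.35 ± 0.31, and Cited2, which competes with HIF-1α for this coactivator, had -0.48 ± 0.33 against T1-binding cells (adjusted p = 0.264) and -1.43 ± 0.34 against T1-non-binding cells (adjusted p = 0.0182). Between the Ly6G-high gates edgeR called no gene of these 5 lists, and the smallest unadjusted p was that of Slc2a8, a glucose transporter, with a log2 fold change of 0.68 ± 0.18 (adjusted p = 0.386). The genes of smallest p in each of the other lists had log2 fold changes of 0.54 ± 0.29 (Pdk2), -0.79 ± 0.25 (Taldo1), -0.95 ± 0.33 (Cited2) and 0.60 ± 0.17 (Fut11), which also did not pass.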

How the data were processed

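Each library file held, per the file headers, a read count and an FPKM value for every gene. The counts, deposited without normalization, were whole numbers, and the FPKM values deposited by the authors equalled those counts per gene length and library total (largest relative deviation of the implied length between libraries 5.37e-12, over 14684 genes). The submitters' processing notes name build mm10, TopHat, STAR 2.5 and HTSeq 0.6.1 without role or order. Strand setting and treatment of reads with several matches are not given in the sources used here, and 21 members overlap another gene of the annotation, 18 of them on the opposite strand.

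Genes were filtered with filterByExpr, which kept 13883 of 35275, given TMM factors and fitted over all 6 libraries in edgeR 4.0.16 (R 4.3.3; quasi-likelihood F test), with Benjamini-Hochberg adjustment over the 13883 genes, a threshold of 0.05 and 3 residual degrees of freedom. Every adjusted p of the report is from this fit unless another tool, model or set of libraries is named. Fold changes and adjusted p-values of the mice came from an edgeR model with population and mouse, with 2 residual degrees of freedom. Levels within a mouse used log2(CPM + 0.5). limma 3.58.1 (voom) and DESeq2 1.42.0 were alternatives, and DESeq2's NA p-values stayed NA. Other alternatives were scaling factors, filters on low counts, the compared groups alone, the mouse as a block, and leaving out each library. The interaction of mouse and Ly6G gate was added after seeing the data.

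Source labels name the mouse of each library, so libraries of 1 animal are paired, and the correlation of their deviations over all tested genes was 0.64 between the Ly6G-high gates, -0.10 between Ly6G-high T1-non-binding and Ly6G-low cells and -0.04 between Ly6G-high T1-binding and Ly6G-low cells. Library totals of 23595976 to 28045025 counts limit precision for scarce genes, where 3 counts stand for at most 0.127 CPM before scaling. The scripts were tested on simulated data.

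Per-library values are given for the called members of each role group with the smallest p, up to 4 a group and at least 1. Of each pathway list the text names called genes with the largest rise or fall among those at 10 CPM or more, or those with the smallest p where none was called. The members, pathway lists and marker lists were chosen with earlier results of these data known.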

Additional observations from a re-analysis of the deposited data

Results flagged for a closer look

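An interaction term of mouse and Ly6G gate, from a model chosen after the data were seen, was called for 15 of 39 members (edgeR, adjusted p under 0.05, beside 18.6% of all tested genes). In Ly6G-low cells each mouse is 1 library, and the 1 residual degree of freedom comes from the Ly6G-high libraries alone, so the Ly6G-low differences have no replicate check. Each value is the log2 difference mouse 2 minus mouse 1 in Ly6G-low cells minus the same difference in Ly6G-high cells. Among regulators and enzymes of glycolysis it was 1.82 for Pfkfb3, 1.41 for Hk3, 1.28 for Hk2, 0.90 for Pfkp and -1.04 for Pfkm, and it was 0.78 for the transporter Slc2a1. In the oxygen-sensing genes it was 1.37 for Egln1, 0.98 for Hif1a and 0.66 for Egln3. Among the targets it was 2.34 for Adm, 0.75 for Bhlhe40, 0.75 for Hilpda, 0.61 for P4ha1, 0.61 for Bnip3 and -1.16 for Car9. Pfkfb3 shows the pattern in its fitted values, which were -0.92 in Ly6G-high and 0.90 in Ly6G-low cells. Adm rests on few reads, with 46 counts in its lowest library.

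Between the Ly6G-high gates, 5 members had opposite signs in the 2 mice, a difference that was not tested. The log2 difference of T1-binding from T1-non-binding cells in mouse 1 was 0.05 for Slc16a1, 0.20 for Pfkm and 0.27 for P4ha2, each negative in mouse 2. It was -0.29 for Hif1a and -0.61 for Ak4 in mouse 1, each positive in mouse 2.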

How the results depend on the processing

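No called member changed direction under any alternative run. With 2 libraries a group, single libraries decided many calls. Scaling decided the sign of some members that were not called, both near 0 and farther from it. Against T1-non-binding cells 12 members changed sign under library totals, among them Ldha, which went from -0.76 to 0.13. The causes were not tested. The number of members called ranged, on leaving out each library, from 8 to 25 (Ly6G-low against Ly6G-high T1-binding) and from 9 to 29 (Ly6G-low against Ly6G-high T1-non-binding), was 0 each time between the Ly6G-high gates, and ranged from 0 to 36 between mice. Their median log2 fold changes ranged from -1.03 to -0.49, -1.70 to -0.88, -0.75 to -0.062 and -0.60 to -0.30. Library totals gave medians of -0.15, -0.45 and -0.086 for the populations, beside 0.61, 0.91 and 0.20 over all tested genes. Upper-quartile factors gave -0.56 for the first, beside 0.21. With the replicate block on 6 libraries the calls were 25, 27 and 0, beside 48.6%, 46.4% and 0% of all tested genes. With the block on the 4 compared libraries they were 24 between the Ly6G-high gates, beside 28.2%. DESeq2 gave 1 between these gates, beside 1.46%. Between mice the count of calls was 36 in the Ly6G-high libraries alone, beside 35.6% of all tested genes. It was 6 with DESeq2, beside 1.17%, and 3 without a filter, beside 0.635%.

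Signs of members that were not called changed as follows, in log2 fold changes. Between the Ly6G-high gates, library totals gave 0.19 for Slc16a1, 0.11 for Hk1, 0.074 for Gpi1, 0.0041 for Gapdh, 0.15 for Pgk1, 0.091 for Pdk1, 0.13 for Hif1a and 0.17 for Egln1, and the 4 libraries alone gave 0.0086 for Slc16a1, or 0.023 with the block. Against T1-binding cells, library totals gave 0.18 for Hk1, 0.31 for Gpi1, 0.45 for Tpi1, 0.42 for Gapdh, 0.57 for Pgk1, 0.27 for Pgam1, 0.056 for Pkm, 0.45 for Ldha, 0.47 for Egln1 and 0.20 for Ndrg1; upper-quartile factors gave 0.042 for Tpi1, 0.017 for Gapdh, 0.17 for Pgk1, 0.039 for Ldha and 0.043 for Egln1; and Pdk1 was -0.014 with RLE factors and with DESeq2. Against T1-non-binding cells, library totals gave 0.29 for Hk1, 0.38 for Gpi1, 0.37 for Tpi1, 0.42 for Gapdh, 0.72 for Pgk1, 0.21 for Pgam1, 0.72 for Eno1, 0.13 for Ldha, 0.72 for Pdk1, 0.64 for Egln1, 0.58 for Mif and 0.54 for Ndrg1, of which Pgk1, Eno1, Pdk1 and Mif were called higher, and upper-quartile factors gave 0.075 for Pgk1, 0.079 for Eno1 and 0.065 for Pdk1. Between mice, library totals gave 0.20 for Hk3, 0.0009 for Gapdh, 0.0295 for Mif and 0.047 for P4ha2, upper-quartile factors 0.018 for Hk3, and limma-voom 0.0011 for Hk3 and -0.024 for Car9.

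On leaving out each library, the ranges that crossed 0 between the Ly6G-high gates were -1.59 to 0.72 for Adm, -1.04 to 0.68 for Ak4, -1.28 to 0.28 for Ankrd37, -0.0074 to 0.42 for Car9, -0.65 to 0.37 for Egln1, -0.40 to 0.048 for Gpi1, -0.58 to 0.39 for Hif1a, -0.47 to 0.20 for Hk1, -1.19 to 0.15 for Hk2, -0.63 to 0.041 for Hk3, -0.23 to 0.38 for Ndrg1, -0.17 to 0.25 for P4ha2, -0.50 to 0.20 for Pdk1, -0.26 to 0.50 for Pfkm, -1.03 to 0.0295 for Pfkp, -0.32 to 0.11 for Pgk1 and -0.21 to 0.17 for Slc16a1. Against T1-binding cells they were -0.64 to 0.41 for Egln1, -0.065 to 0.28 for Eno1, -0.40 to 0.0304 for Ldha, -0.046 to 0.13 for Mif, -0.30 to 0.31 for Pdk1 and -0.27 to 0.15 for Pgk1. Against T1-non-binding cells they were -0.57 to 0.17 for Egln1, -0.31 to 0.063 for Eno1, -0.47 to 0.22 for Pdk1 and -0.34 to 0.085 for Pgk1. Between mice they were -0.47 to 0.049 for Aldoc, -0.17 to 0.48 for Car9, -0.49 to 0.29 for Hk3 and -0.92 to 0.0415 for Pfkfb3.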
